A study of Arabidopsis thaliana with 6 samples.

Results

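The genes described are the core and linker histones of Arabidopsis thaliana and the histone chaperone CAF-1. They comprised 43 loci, taken by locus identifier or gene symbol: canonical H2A, the H2A variants H2A.X, H2A.W and H2A.Z, H2B, H3.1, H3.3, H4, linker H1, and the CAF-1 subunits FAS1, FAS2 and MSI1. They occupied 35 of the 33511 rows of the deposited table, and all 35 passed the filter on low values, which kept 19134 rows. The measurements were made on whole seedlings of the Col-0 accession, all carrying a MUTE cDNA in pER8, an expression vector switched on by estradiol through a synthetic activator. Seedlings 4 days old received either 10 µM estradiol for 8 h or the solvent DMSO for the same time (mock), with 3 libraries per group and 40 to 50 seedlings pooled in each. No line without the construct was compared, so MUTE, estradiol and the activator enter the comparison together. MUTE is a transcription factor of the stomatal lineage, and per the series title the study concerns how it directs cell state switching and the symmetric division of stomatal precursors.

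Histones package DNA into nucleosomes. An octamer of H2A, H2B, H3 and H4 forms the core, and H1 binds the linker DNA. Replicative histones, such as H3.1 and canonical H2A, are made mainly when DNA is copied, and CAF-1 places H3.1 with H4 behind the replication fork. Replacement variants, such as H3.3 and H2A.Z, can be inserted outside replication by other chaperones and remodellers. In plants the messenger RNAs of replicative histones carry poly(A) tails, so that they are caught in poly(A)-based mRNA libraries.

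Values are FPKM as deposited, fragment numbers scaled for transcript length and library size. MUTE itself was at 3.31, 1.89 and 1.90 FPKM in the mock libraries and at 2946, 2964 and 3049 FPKM with estradiol. FPKM totals ran from 461556 to 469530 per library. Estradiol 1 had 9514 rows listed at 0 and estradiol 3 had 9182, whereas the other 4 libraries had 8559 to 8679. Leaf and root genes were both abundant, as in whole seedlings: the leaf gene RBCS1A averaged 6089 FPKM in mock and 6333 FPKM with estradiol, and the root gene PYK10 averaged 1694 and 1180 FPKM. Of 11 tissue markers with a row of their own, 8 were tested. CASP1 of the root endodermis rose, and PYK10 and the root hair gene COBL9 fell. The shoot meristem gene STM and the root meristem genes PLT1 and PLT2 lay between 0.69 and 1.30 FPKM in all 6 libraries, and WUS and CLV3 at or below 0.08 FPKM. SCR, also listed for the root meristem, lay between 20.8 and 24.3 FPKM. The epidermal gene ATML1 lay between 10.2 and 10.7 FPKM. Mock and estradiol libraries overlapped for both SCR and ATML1. PDF1, also listed for the epidermis, was left out of the count because its row name belongs to several loci. That row rose from 108, 109 and 94.8 FPKM in mock to 192, 224 and 203 FPKM with estradiol. Its log2 fold change was 0.98 and its groups did not overlap. The row of LHCB2.1, left out for the same reason, had overlapping groups and a log2 fold change of -0.24 that did not pass. Whether tissue make-up had a part in the histone values was not tested. In such bulk samples, more cells of a type and more RNA per cell cannot be told apart.

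Histone and CAF-1 transcripts were mostly a little more abundant with estradiol. Of the 35 rows, 27 rose, none fell and 8 did not pass the test (limma on log2(FPKM + 1), two-sided, Benjamini-Hochberg adjusted p under 0.05 over all 19134 rows tested). The 27 made up 77.1% of the rows, against 36.2% of all genes called, of which 23.3% were higher and 12.9% lower. The median fitted log2 fold change over the 35 rows was 0.25, beside 0.05 over all genes tested, and 34 of the 35 were fitted higher, beside 61.8% of all genes. In 32 of the 35 rows every estradiol library lay above every mock library, an arrangement found in 33.7% of all rows tested; 51.0% of all rows had no overlap in either direction. The changes were small: no histone or CAF-1 row reached 2-fold, as 0.810% of all genes did among those called. Rows ranged from 0.85 to 303 FPKM, and the median coefficient of variation among replicates was 2.43% in mock and 2.92% with estradiol. Scaling changed the balance of calls over all genes, which was 4454 higher and 2474 lower as deposited. Quantile normalization gave 3449 higher (18.0%) and 3082 lower, and histone and CAF-1 calls were then 27, all higher. Median-of-ratios size factors gave 3018 higher (15.8%) and 3422 lower, and histone and CAF-1 calls were then 25, all higher.

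**Figure D1:**
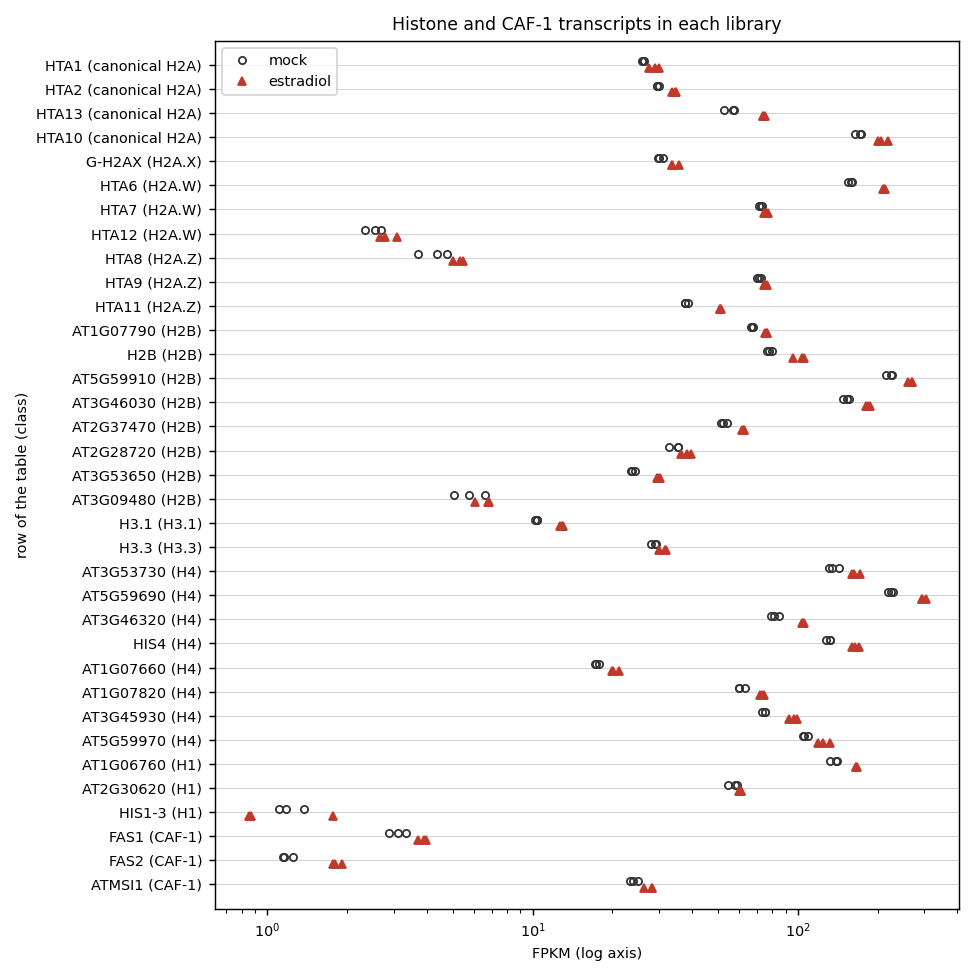
FPKM (log axis) of each histone and CAF-1 row in the 3 mock libraries (circles) and the 3 estradiol libraries (triangles). In 32 of the 35 rows all triangles lie to the right of all circles, and the exceptions are HTA12, AT3G09480 and HIS1-3.

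Some rows stand for several loci. The table lists 1 row per gene name, and 4 names belong to more than 1 of the 43 loci: H3.1 (5 loci), H3.3 (3 loci), H2B (AT5G22880 and AT3G45980) and G-H2AX (AT1G54690 and AT1G08880). The other 31 rows belong to 1 locus each, and 24 of those 31 rose. A numeric column of the table with no stated measure held, for these 4 rows, whole numbers divided by 5, 3, 2 and 2, the numbers of their loci. Relative to FPKM and to the summed exon length, that column was 1.28 times the median of 16347 single-locus rows for H3.1, 1.63 times for H3.3, 0.71 times for H2B and 0.91 times for G-H2AX, and the quartiles of those rows were 0.832 and 1.39. With the mean exon length the factors were 6.40, 4.90, 1.42 and 1.83. The length behind these 4 FPKM values is therefore uncertain, and their levels were not compared with single-locus rows. The H3.1 and H3.3 rows are set against each other below, as ratios and shares that carry this uncertainty. A fixed length cancels when the same row is compared between groups.

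Canonical H2A, the replicative form, rose in 4 of 4 genes, beside 23.3% of all genes called higher. HTA10 was the most abundant, at 164, 172 and 172 FPKM in mock and 219, 206 and 200 FPKM with estradiol, a log2 fold change of 0.30 (SE 0.042, adjusted p = 0.00129). HTA13 went from 57.6, 56.9 and 52.9 FPKM to 73.9, 73.8 and 75.3 FPKM, a log2 fold change of 0.41 (SE 0.039, adjusted p = 0.000209). All estradiol libraries of both genes lay above all mock libraries. HTA2 was at 29.5, 30.0 and 29.4 FPKM in mock and 34.4, 34.7 and 33.6 FPKM with estradiol, with adjusted p = 0.00214. HTA1 moved least, from 26.2, 26.0 and 26.0 FPKM to 28.9, 29.9 and 27.5 FPKM, a log2 fold change of 0.14 (adjusted p = 0.0253). The groups of HTA1 still did not overlap, but its call was lost without any 1 of mock 1, mock 2, mock 3, estradiol 1 or estradiol 2, where adjusted p ran from 0.0591 to 0.0837. With median-of-ratios scaling the log2 fold change of HTA1 was 0.08 and adjusted p was 0.132.

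Fitted changes of the H2A.Z genes ran from 0.08 to 0.42, and 2 of 3 rose, beside 23.3% of all genes called higher. HTA11, an H2A.Z gene, rose from 38.4, 37.7 and 37.5 FPKM to 50.8, 51.1 and 51.4 FPKM, a log2 fold change of 0.42 (SE 0.030, adjusted p = 4.8e-05). HTA9, another H2A.Z gene and the most abundant of the class, was at 71.5, 72.4 and 70.3 FPKM in mock and 74.3, 75.1 and 76.6 FPKM with estradiol. Its groups did not overlap, but the log2 fold change of 0.08 (SE 0.030) did not pass, with adjusted p = 0.0836. HTA8, the rarest H2A.Z gene, rose from 4.76, 4.35 and 3.71 FPKM to 5.0, 5.32 and 5.45 FPKM, a log2 fold change of 0.25 (adjusted p = 0.0335). Mock varied more than estradiol for HTA8, and adjusted p was 0.0676 without mock 2, 0.0718 without mock 3, 0.0777 without estradiol 2 and 0.0942 without estradiol 3. It was also 0.0695 with no filter on low values and 0.0502 with median-of-ratios scaling.

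H2A.W, a plant form found in heterochromatin, rose in 1 of 3 genes, beside 23.3% of all genes called higher. HTA6 rose from 160, 154 and 159 FPKM to 209, 213 and 212 FPKM, a log2 fold change of 0.42 (SE 0.031, adjusted p = 5.69e-05). HTA7 was at 73.6, 71.6 and 72.4 FPKM in mock and at 76.0, 77.1 and 74.8 FPKM with estradiol, with a log2 fold change of 0.07 that did not pass (adjusted p = 0.123). HTA12 lay between 2.33 and 3.07 FPKM in all 6 libraries, its groups overlapped, and adjusted p was 0.166. The shared row of the H2A.X genes, whose protein is phosphorylated at DNA breaks, rose from 31.0, 29.7 and 30.0 FPKM to 33.5, 33.6 and 35.6 FPKM, a log2 fold change of 0.17 (adjusted p = 0.00861).

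To compare proportions within the H2A family, ratios of FPKM were taken in each library. The ratio of HTA11 to HTA9 was 0.538, 0.520 and 0.533 in mock and 0.684, 0.680 and 0.670 with estradiol. HTA6 over HTA7 was 2.17, 2.15 and 2.20 in mock and 2.75, 2.77 and 2.83 with estradiol. Neither pair's groups overlapped, but both pairs were picked after their values were seen, so no test is given. Canonical H2A over H2A.Z, summed over the genes of each class, was 2.42, 2.49 and 2.52 in mock and 2.74, 2.62 and 2.52 with estradiol. The lowest estradiol value barely exceeded the highest mock value. The canonical share of that sum was 71.2% ± 0.418 (SD, n = 3) in mock and 72.4% ± 0.820 (SD, n = 3) with estradiol, higher by 1.20 percentage points, and with the median gene of each class in place of the sum the difference turned to -1.52 points.

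**Figure D2:**
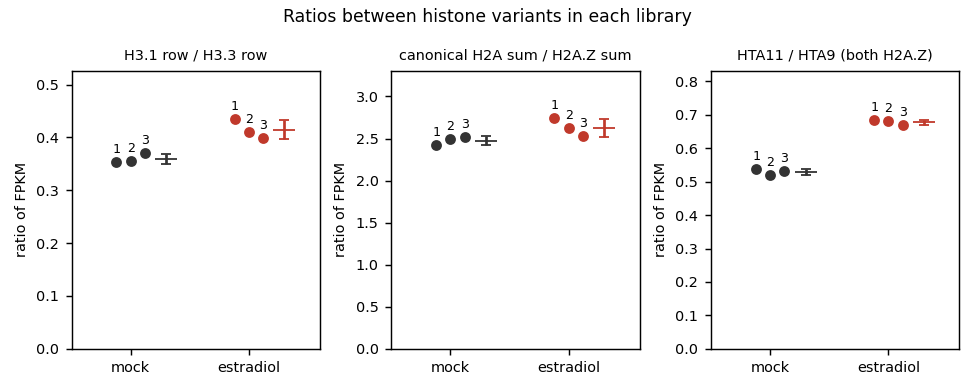
Ratios of FPKM in each library, numbered by replicate, for the H3.1 row over the H3.3 row, summed canonical H2A over summed H2A.Z, and HTA11 over HTA9; bars are the mean ± SD of 3 libraries. HTA11 over HTA9 averages 0.530 in mock and 0.678 with estradiol with no overlap, whereas the canonical H2A to H2A.Z ratio of estradiol 3 (2.524) lies next to that of mock 3 (2.517).

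H2B, the partner of H2A in the nucleosome, rose in 6 of 8 rows, beside 23.3% of all genes called higher. The largest change was in the row shared by AT5G22880 (HTB2) and AT3G45980 (HTB9), which went from 79.9, 77.9 and 76.9 FPKM to 104, 105 and 96.3 FPKM, a log2 fold change of 0.37 (SE 0.041, adjusted p = 0.000376). AT3G53650 followed, from 23.4, 23.7 and 24.3 FPKM to 29.6, 30.1 and 29.5 FPKM, a log2 fold change of 0.31 (adjusted p = 0.000324). Estradiol and mock libraries did not overlap in either row. The most abundant H2B gene with a row of its own, AT5G59910 (HTB4), rose by 20.3% from a mean of 222 FPKM to 267 FPKM. AT3G46030 (HTB11), AT2G37470 and AT1G07790 (HTB1) also rose, by 20.8%, 18.6% and 13.4%. AT2G28720 had a log2 fold change of 0.14 and adjusted p = 0.0578, which became 0.0388 without estradiol 3 and 0.0457 with a filter of 5 FPKM; with median-of-ratios scaling its log2 fold change was 0.08 with adjusted p = 0.279. The rarest H2B gene with a row of its own, AT3G09480, lay between 5.05 and 6.82 FPKM with overlapping groups. Its adjusted p of 0.177 became 0.0442 without mock 1.

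H3.1 and H3.3 differ in few amino acids, and the coding sequences of their genes are alike but not the same. Over 411 coding bases the 5 H3.1 genes were 80.3% to 89.5% identical to each other and 74.0% to 80.3% identical to the 3 H3.3 genes. Bases 73 to 149 of the coding sequence are given for all 8 genes, from RefSeq's assembly TAIR10.1, to let the differences between the summed loci be seen. Each is written 5′ to 3′ on the coding strand, and capitals mark bases that differ from AT5G65360.
AT5G65360 (H3.1, chr5:26120361-26120437, minus strand): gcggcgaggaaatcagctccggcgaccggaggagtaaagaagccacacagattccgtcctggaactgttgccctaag
AT1G09200 (H3.1, chr1:2971984-2972060, minus strand): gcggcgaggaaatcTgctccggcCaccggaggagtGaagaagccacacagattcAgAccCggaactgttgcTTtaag
AT3G27360 (H3.1, chr3:10129721-10129797, minus strand): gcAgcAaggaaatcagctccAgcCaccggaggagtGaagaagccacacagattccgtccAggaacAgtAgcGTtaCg
AT5G10400 (H3.1, chr5:3270740-3270816, minus strand): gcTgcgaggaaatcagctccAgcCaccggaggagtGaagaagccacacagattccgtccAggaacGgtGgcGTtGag
AT5G10390 (H3.1, chr5:3269327-3269403, minus strand): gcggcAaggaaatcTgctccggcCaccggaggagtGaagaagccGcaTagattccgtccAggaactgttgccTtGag
AT4G40030 (H3.3, chr4:18556187-18556263, minus strand): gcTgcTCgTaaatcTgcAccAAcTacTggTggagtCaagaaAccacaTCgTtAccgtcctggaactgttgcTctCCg
AT4G40040 (H3.3, chr4:18558001-18558077, minus strand): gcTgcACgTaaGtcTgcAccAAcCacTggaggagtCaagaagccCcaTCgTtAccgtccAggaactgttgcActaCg
AT5G10980 (H3.3, chr5:3472943-3473019, minus strand): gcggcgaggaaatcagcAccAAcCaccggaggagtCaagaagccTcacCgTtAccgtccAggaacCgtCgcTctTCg
The capitals number 8 to 11 in the other H3.1 genes and 15 to 20 in the H3.3 genes. None of the 50-base stretches of the H3.3 genes occurred in another gene; AT3G27360 of the H3.1 group had 35.6% of its stretches in other genes, AT3G27380 and AT5G10400.

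The H3.1 row rose and the H3.3 row did not pass the test. H3.1 was at 10.2, 10.4 and 10.4 FPKM in mock and 12.98, 12.94 and 12.69 FPKM with estradiol, a log2 fold change of 0.29 (SE 0.035, adjusted p = 0.000602). H3.3 was at 29.0, 29.3 and 28.0 FPKM in mock and 29.9, 31.5 and 31.8 FPKM with estradiol, a log2 fold change of 0.11 (SE 0.038, adjusted p = 0.0548). Both rows had every estradiol library above every mock library, by a narrow margin for H3.3. Adjusted p for H3.3 was 0.0396 without estradiol 1 and 0.0454 with a filter of 5 FPKM, and with median-of-ratios scaling its log2 fold change was 0.05 with adjusted p = 0.255. The ratio of the H3.1 row to the H3.3 row was 0.353, 0.355 and 0.371 in mock and 0.435, 0.410 and 0.400 with estradiol. H3.1 made up 26.5% ± 0.524 (SD, n = 3) of the FPKM of both rows in mock and 29.3% ± 0.892 (SD, n = 3) with estradiol, higher by 2.86 percentage points. These shares carry the uncertain length of both rows, and a fixed length sets their size but not which group is higher. Whether each row holds the fragments of all its loci is not known either. The shares are therefore not a measure of the make-up of H3 transcripts. Counted over both families, 5 of 5 rows of the replicative forms rose (canonical H2A and H3.1), beside 23.3% of all genes called higher. Of the replacement forms, 2 of 4 rows rose (HTA8 and HTA11 of H2A.Z, not HTA9 or H3.3). In every row of both kinds, all estradiol libraries lay above all mock libraries, an arrangement found in 33.7% of all rows tested. HTA1 and HTA8, from either kind, each lost their call in 7 of 13 alternatives. The difference between these kinds was not tested.

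H4 has no replacement variant here and pairs with both forms of H3. It rose in 8 of 8 genes, beside 23.3% of all genes called higher, by log2 fold changes of 0.22 to 0.40. AT5G59690, which had the highest mean FPKM of the 31 single-locus rows, went from 225, 218 and 229 FPKM to 294, 303 and 293 FPKM (log2 fold change 0.40, SE 0.034, adjusted p = 0.000108). AT1G07660 changed least, from 17.1, 17.8 and 17.4 FPKM to 21.2, 19.9 and 20.2 FPKM (log2 fold change 0.22, adjusted p = 0.00331). In all 8 every estradiol library lay above every mock library, an arrangement found in 33.7% of all rows tested. The summed FPKM of H4 rose from 832 ± 18.7 (SD, n = 3) to 1047 ± 7.13 (SD, n = 3). Some H4 genes share sequence, so fragments may have been divided between them: AT3G46320 and AT3G45930 held 27.9% and 25.7% of their 50-base stretches in common with another gene, in each case the other of the pair, and AT1G07660 and AT1G07820 held 24.9% and 18.4%. Both members of each pair rose.

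Linker histone H1 gave 1 rise in 3 genes, beside 23.3% of all genes called higher. AT1G06760 rose from 139, 140 and 133 FPKM to 168, 165 and 165 FPKM, a log2 fold change of 0.27 (SE 0.033, adjusted p = 0.000629). AT2G30620 was at 57.9, 59.0 and 54.5 FPKM in mock and 60.1, 61.2 and 60.9 FPKM with estradiol, a log2 fold change of 0.09 that did not pass (adjusted p = 0.0996). The ratio between them was 2.40, 2.38 and 2.43 in mock and 2.79, 2.70 and 2.71 with estradiol. HIS1-3, a linker histone known to respond to drought, was low and uneven, at 1.11, 1.37 and 1.18 FPKM in mock and 0.87, 1.76 and 0.85 FPKM with estradiol. Estradiol 2 was the highest of the 6 HIS1-3 values and estradiol 1 and 3 were the lowest, so the groups overlapped and the log2 fold change of -0.06 did not pass (adjusted p = 0.768). It was 0.03 without estradiol 1 and 0.035 without estradiol 3, and without estradiol 2 it was -0.25 with adjusted p = 0.0483.

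**Figure D3:**
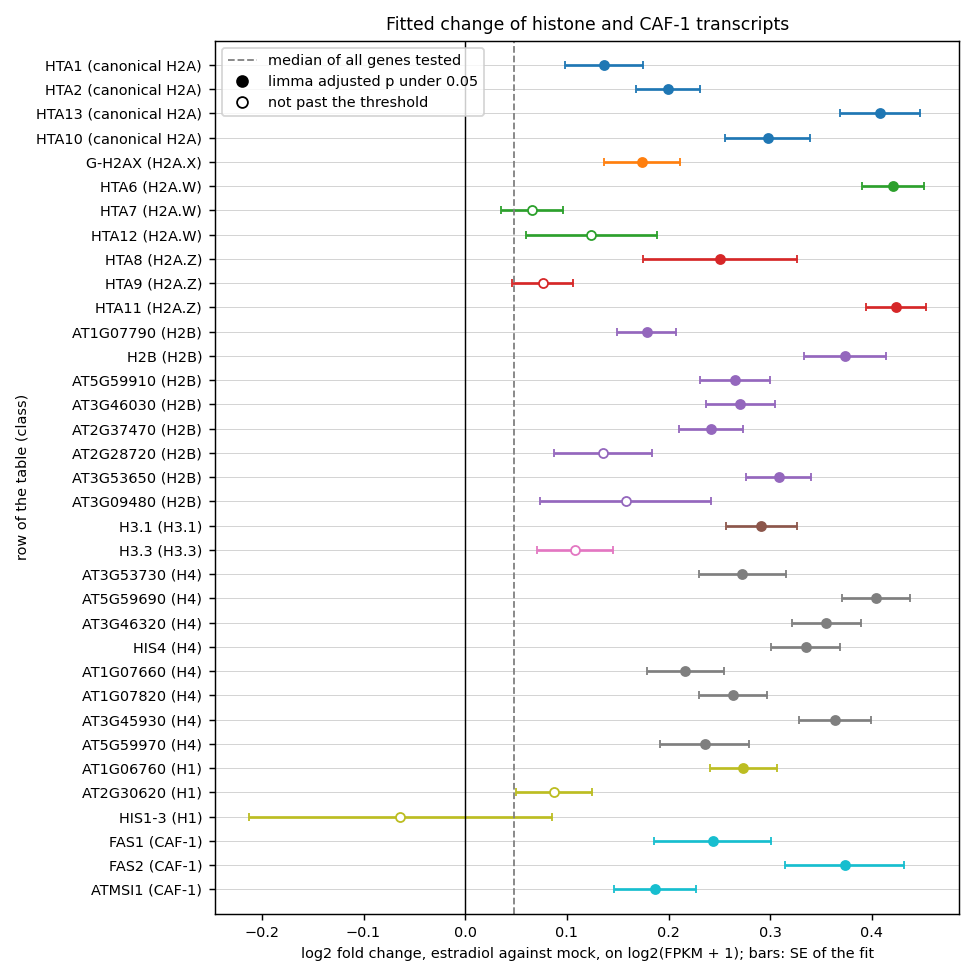
Fitted log2 fold change of each histone and CAF-1 row, estradiol against mock on log2(FPKM + 1), with the SE of the fit; filled points passed limma's adjusted p of 0.05, and the dashed line is the median of all genes tested (0.05). HTA11, HTA6, HTA13 and AT5G59690 lie at 0.40 to 0.42, HTA7, HTA9 and AT2G30620 lie below 0.1, and HIS1-3 alone lies below 0.

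All 3 CAF-1 subunits rose, beside 23.3% of all genes called higher. FAS2 went from 1.25, 1.14 and 1.15 FPKM to 1.91, 1.80 and 1.76 FPKM, 54.5% higher in mean FPKM, with a log2 fold change of 0.37 (SE 0.058, adjusted p = 0.00209) that the added 1 makes smaller at so low a level. FAS1, the large subunit, rose from 3.11, 3.32 and 2.87 FPKM to 3.91, 3.95 and 3.69 FPKM, a log2 fold change of 0.24 (adjusted p = 0.0129). MSI1, a WD-repeat protein that also serves in other chromatin complexes, rose from 24.9, 24.0 and 23.4 FPKM to 28.2, 26.4 and 28.1 FPKM, a log2 fold change of 0.19 (adjusted p = 0.00903). The estradiol libraries lay above the mock libraries for each subunit, an arrangement found in 33.7% of all rows tested. MSI1 was far more abundant than FAS1 and FAS2 in every library. All 3 kept their calls in every alternative in which they could be tested.

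Other chaperones, remodellers and H3.1 enzymes were counted from a separate list. Of 24 genes with a row of their own, 7 rose, none fell and 17 did not pass. The 7 made up 29.2%, beside 23.3% of all genes called higher and 36.2% called in either direction. The median log2 fold change was 0.10, beside 0.05 over all genes tested. DDM1, a remodeller needed for heterochromatin, rose from 8.05, 7.21 and 7.15 FPKM to 10.8, 11.8 and 10.5 FPKM, a log2 fold change of 0.50 (SE 0.059, adjusted p = 0.00056). ATXR6, which methylates a lysine of the H3.1 tail, rose from 2.90, 2.83 and 2.44 FPKM to 3.94, 4.05 and 3.70 FPKM (log2 fold change 0.40). TSK, whose protein binds newly placed H3.1, rose from 2.36, 2.39 and 2.13 FPKM to 3.13, 3.53 and 3.21 FPKM (log2 fold change 0.38). The groups of these 3 genes did not overlap. ATXR5, which methylates the same lysine as ATXR6, lay between 1.70 and 2.05 FPKM in all 6 libraries, its groups overlapped, and its log2 fold change of -0.02 did not pass (adjusted p = 0.845).

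ASF1B, which hands H3 with H4 to CAF-1 and HIRA, rose from 11.5, 11.3 and 11.2 FPKM to 13.5, 14.4 and 13.7 FPKM (log2 fold change 0.27, adjusted p = 0.00139). Its paralog ASF1A had a log2 fold change of 0.18 that did not pass (adjusted p = 0.0569; 0.0493 without estradiol 1 and 0.0442 with a filter of 5 FPKM). HIRA, the chaperone that places H3.3, lay between 2.20 and 2.45 FPKM in all 6 libraries with overlapping groups and adjusted p = 0.728. Also past the threshold were ARP6, a subunit of the complex that inserts H2A.Z (log2 fold change 0.22), and SSRP1 of the chaperone FACT (0.22). AT2G47210 (SWC4), listed for the same complex as ARP6, passed too (0.16), with groups that did not overlap. Its call was kept in 3 of 13 alternatives and lost without any 1 library (adjusted p 0.0507 to 0.117). The other listed partners of ARP6 and SSRP1 did not pass, and their groups overlapped. PIE1, SWC6 and SWC2 of the complex that inserts H2A.Z had log2 fold changes of 0.07, 0.09 and 0.10 (adjusted p = 0.329, 0.297 and 0.214). SPT16, the other FACT subunit, had 0.08 (adjusted p = 0.221). Of 9 further histone genes outside the 43 loci, 3 passed the filter on low values and 2 of these rose, beside 23.3% of all genes called higher. AT5G02570 (HTB10) lay between 1.79 and 2.53 FPKM with overlapping groups, and its log2 fold change of -0.11 did not pass (adjusted p = 0.336). CENH3, the H3 of centromeres, rose from 2.14, 1.83 and 2.1 FPKM to 2.84, 3.0 and 2.50 FPKM (log2 fold change 0.32, adjusted p = 0.00975), and HTR11 also rose (0.26, adjusted p = 0.0317). The HTR11 call was lost without mock 1, mock 3, estradiol 2 or estradiol 3, where adjusted p ran from 0.0915 to 0.0952, and was 0.0639 with no filter and 0.0585 with median-of-ratios scaling.

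**Figure D4:**
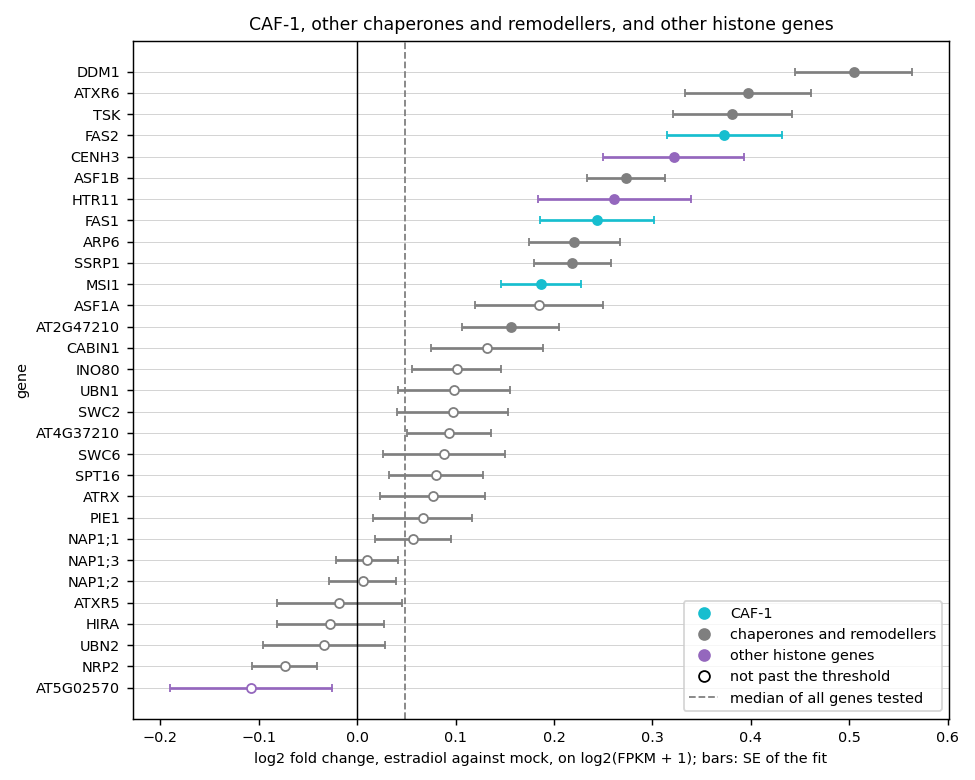
Fitted log2 fold change (SE of the fit) of the CAF-1 subunits, the 24 other chaperones, remodellers and H3.1 enzymes, and the 3 further histone genes tested; filled points passed limma's adjusted p of 0.05 and the dashed line is the median of all genes tested (0.05). DDM1 (0.50), ATXR6 (0.40) and TSK (0.38) lie highest, next to FAS2 (0.37), while HIRA lies at -0.03.

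The annotated gene structures differed between the H3 forms but not between canonical H2A and H2A.Z. No coding intron was annotated in 5 of 5 H3.1 genes, 9 of 9 H2B genes and 7 of 8 H4 genes, whereas every annotated transcript of the H3.3, H2A and CAF-1 genes had at least 1. Within 20 kb of each other lay 8 pairs of the 43 loci, among them the H3.1 genes AT5G10390 and AT5G10400 with 577 bases between them and the H3.3 genes AT4G40030 and AT4G40040 with 42 bases between them. The remaining pairs joined an H2B gene with an H2A.W, H2B or H4 gene.

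Promoters were searched for motifs that are known from plant histone genes. The windows held the 250 bases before the annotated gene start of 27443 protein-coding genes in TAIR10.1, read on both strands. The octamer CGCGGATC, known from plant H3 and H4 promoters, stood in 10 of the 43 loci and in 37 genes in all, or 0.135%. It was found in 3 of 5 H3.1 genes, 2 of 4 canonical H2A genes, 2 of 8 H4 genes and 1 each of the H1, H3.3 and H2A.W genes, and in no H2A.Z, H2B or CAF-1 gene. The hexamer ACGTCA stood in 10 of the 43 loci, beside 7.69% of all genes, and 7 of the 9 H2B genes held it, as did 2 H3.1 genes and 1 H3.3 gene. E2F-type letters (TTTCCCGC, TTTGGCGC, TTTCGCGC or TTTGCCGC), known from genes of the replication phase, stood in 5 of the 43 loci, beside 1.41% of all genes. These were FAS1, FAS2, AT5G22880 and the H4 genes AT3G45930 and AT3G46320, which share sequence and had the match at the same distance from their starts. No matches overlapped. The 5 windows below were chosen to show each motif and a gene with 2 octamers or 2 E2F-type matches, and capitals mark the matches.
HTA10, canonical H2A (chr1:18926561-18926810, plus strand): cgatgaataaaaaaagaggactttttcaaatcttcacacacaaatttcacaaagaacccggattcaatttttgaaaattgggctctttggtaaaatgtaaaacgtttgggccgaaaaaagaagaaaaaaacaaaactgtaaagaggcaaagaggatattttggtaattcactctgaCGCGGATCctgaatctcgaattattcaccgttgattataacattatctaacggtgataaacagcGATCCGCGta
AT1G09200, H3.1 (chr1:2972335-2972584, minus strand): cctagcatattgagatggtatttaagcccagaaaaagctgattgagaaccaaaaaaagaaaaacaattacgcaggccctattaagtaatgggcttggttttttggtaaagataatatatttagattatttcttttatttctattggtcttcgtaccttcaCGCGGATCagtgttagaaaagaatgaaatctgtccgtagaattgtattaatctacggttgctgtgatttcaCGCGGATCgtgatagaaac
AT5G59690, H4 (chr5:24051224-24051473, plus strand): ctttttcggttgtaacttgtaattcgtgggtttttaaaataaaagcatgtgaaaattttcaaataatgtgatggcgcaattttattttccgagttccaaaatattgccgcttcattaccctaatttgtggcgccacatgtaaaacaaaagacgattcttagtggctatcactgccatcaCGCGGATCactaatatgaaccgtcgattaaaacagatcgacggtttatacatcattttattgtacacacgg
AT5G22880, H2B (chr5:7652715-7652964, minus strand): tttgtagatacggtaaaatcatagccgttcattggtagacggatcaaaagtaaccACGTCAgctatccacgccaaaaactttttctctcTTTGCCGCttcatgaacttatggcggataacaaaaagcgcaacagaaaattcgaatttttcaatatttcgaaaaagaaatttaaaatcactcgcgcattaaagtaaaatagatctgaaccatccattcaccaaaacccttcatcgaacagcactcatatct
FAS1, CAF-1 (chr1:24324092-24324341, minus strand): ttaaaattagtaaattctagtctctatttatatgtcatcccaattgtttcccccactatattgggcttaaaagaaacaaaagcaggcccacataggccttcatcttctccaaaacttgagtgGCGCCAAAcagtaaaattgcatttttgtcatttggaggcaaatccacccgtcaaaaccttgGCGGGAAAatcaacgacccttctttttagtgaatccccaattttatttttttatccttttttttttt
In HTA10 the octamer stands once on each strand, at 74 and 10 bases before the gene start. In AT1G09200 it stands at 90 and 19 bases before the start. AT5G22880 holds the hexamer at 195 bases and E2F-type letters at 161 bases before its start, and FAS1 holds the latter at 128 and 67 bases.

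The motif matches are set beside the fitted changes as a description, with no test. Over single-locus rows, the 6 with an octamer all rose, with a median log2 fold change of 0.35, and 18 of the 25 without it rose, with a median of 0.24. The 4 with E2F-type letters rose, with a median of 0.36, and 20 of the 27 without them, with a median of 0.24. For the hexamer, 4 of 5 with it and 20 of 26 without it rose, with medians of 0.24 and 0.26. Loci in rows that several loci share are outside these counts. Among them, octamers stood in 3 H3.1 loci, whose row rose, and in AT4G40040, whose H3.3 row did not pass. HTA11, with the highest log2 fold change of the histone genes, had none of these letters in its window, whereas HTA6, next to it, had an octamer at 116 bases before its start. A match is no evidence of binding, and the absence of these letters says nothing about the factor.

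**Figure D5:**
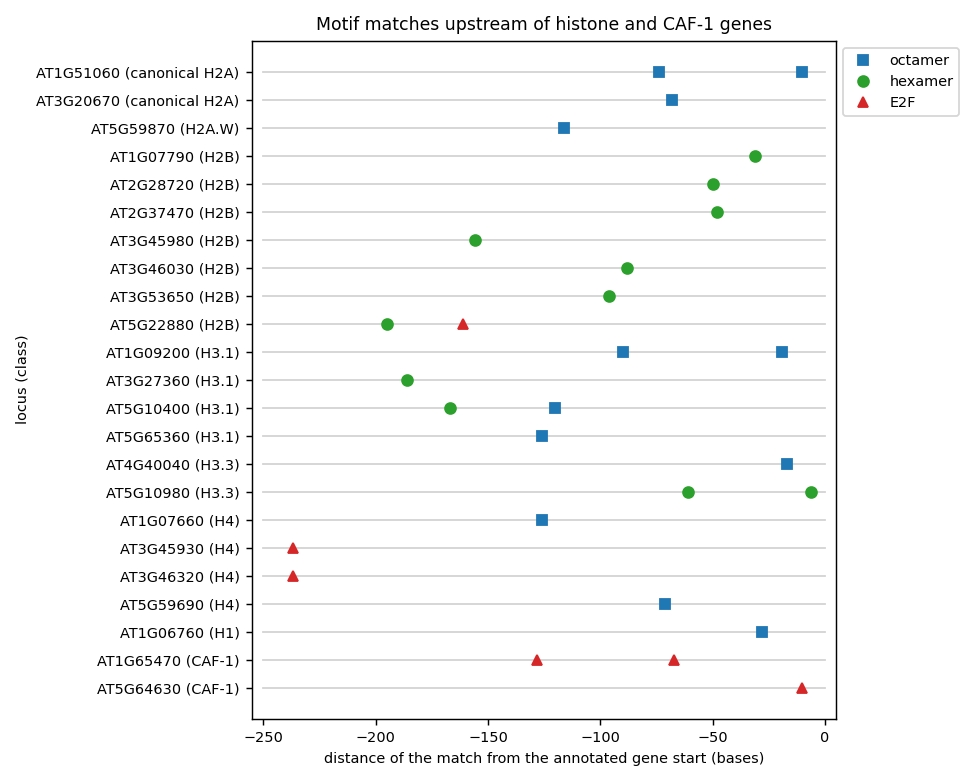
Distance in bases from the annotated gene start of each match to the octamer (squares), the hexamer (circles) and the E2F-type letters (triangles), for the histone and CAF-1 loci with at least 1 match in the 250 bases before the start. Hexamers lie in 7 H2B, 2 H3.1 and 1 H3.3 loci, and octamers in H3.1, H3.3, canonical H2A, H2A.W, H4 and H1 loci. E2F-type letters lie in the CAF-1 genes FAS1 and FAS2, an H2B locus and 2 H4 loci.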

How the data were processed

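Per the labels' protocols, RNA from whole seedlings was made into stranded mRNA libraries and sequenced as paired 50-base reads (HiSeq 2500) to a stated 30M coverage. The submitters' processing notes name TopHat2 2.0.13, DESeq2 and the build TAIR10; how FPKM were computed and how fragments were divided between similar genes is not given in the sources used here. The authors deposited 1 table of FPKM per gene name and library, with 2 groups of 3 libraries. Groups and replicate numbers come from the sample titles. The labels do not say that replicates were grown separately, so p-values measure the spread between these samples, which may be technical. Read counts were not used here, so no counting intervals are given.

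Rows were paired with loci through RefSeq's annotation of TAIR10.1, which also gave coordinates, introns, shared 50-base stretches and promoters. Genes with at least 1 FPKM in at least 3 of the 6 libraries were tested as log2(FPKM + 1) by limma 3.58.1 under R 4.3.3 (two-sided, eBayes with trend, Benjamini-Hochberg adjustment over the genes kept, threshold 0.05). Fold changes are on that scale, which understates changes of low genes. Errors are SD of 3 libraries, or SE of the fit. The fit was also run on simulated data in which far fewer genes were changed than were called here. That run therefore does not bear on the calls given. Python 3.11.15, numpy 2.4.6, pandas 2.3.3 and, for plots, matplotlib 3.10.9 were used.

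The loci, gene lists and motifs were chosen with earlier results of these data known. Named genes were all members, with values per library for H3, canonical H2A, H2A.Z, H1, CAF-1 and the extremes of other classes. Of the chaperone list the 5 largest changes, HIRA, ASF1A and ASF1B were named, and CENH3 of the other histone genes. HTR11, AT5G02570, AT2G47210, SSRP1, SPT16, PIE1, SWC6, SWC2, ATXR5, PDF1, LHCB2.1 and some other values per library were added after their values were seen. NRP1 was left out of the chaperone list, and LHCB2.1 and PDF1 out of the marker counts, because their row names belong to several loci. Alternatives were another pseudocount (0.1), no filter or a filter of 5 FPKM, quantile and median-of-ratios scaling, no trend, a replicate block, and each library left out. Rows with under 20% shared stretches, averaged over the loci of a row, were also counted alone.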

Additional observations from a re-analysis of the deposited data

How the results depend on the processing

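Over the alternatives fitted, 25 to 27 histone and CAF-1 rows passed. Of the rows with under 20% shared stretches, averaged over the loci of a row, 24 of 32 did. The H3.1 row stayed in, although AT3G27360 alone had 35.6%. Without the 4 rows that several loci share, an alternative chosen after seeing the data, 24 of 31 did. All these calls were higher except HIS1-3, lower without estradiol 2 (-0.2535). Of the combinations of a histone or CAF-1 row and an alternative, 429 kept direction and side of the threshold, 14 lost the call (HTA1 and HTA8, 7 each), 6 gained one and 2 turned sign, HIS1-3 at 0.0273 without estradiol 1 and 0.035 without estradiol 3. Other histone genes past the threshold fell from 2 to 1 with no filter and with median-of-ratios scaling, where HTR11 was lost, and ran from 1 to 2 with each library left out; with a filter of 5 FPKM none was left to test. The canonical H2A share difference turned to -1.5156 points with class medians. Signs of small changes also turned: with each library left out, HIRA ran from -0.0512 to 0.003, ATXR5 from -0.0639 to 0.024, NAP1;3 from -0.003 to 0.0258 and NAP1;2 from -0.0141 to 0.0207. With median-of-ratios scaling NAP1;3 was -0.0457 and NAP1;2 -0.0498, and with quantile normalization NAP1;2 was -0.0095. The cause of these turns was not tested. Same-numbered libraries did not deviate together (r = -0.00638, 0.0474 and -0.00197). The labels do not say whether they were handled in pairs, and these values cannot show it. With a replicate block 25 histone and CAF-1 rows, 7 chaperone genes, 2 other histone genes and 6038 of all genes passed. HTA1 (adjusted p 0.05001) and HTA8 (0.06122) did not pass with that block. The fits without 1 library keep 2 in a group. NRP2 passed, lower, with median-of-ratios scaling (-0.1291). With 3 libraries a group, the SE of the log2 fold changes was 0.029 to 0.149 over the histone and CAF-1 rows.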
